A study of Mus musculus with 2 samples.

Results

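The myosin-binding proteins and the myomesins are accessory proteins of the muscle thick filament, and their genes were followed here by symbol as 8 genes (Mybpc1, Mybpc2, Mybpc3, Mybph, Mybphl, Myom1, Myom2 and Myom3) of 55536 annotated genes. The tissue was gastrocnemius, the large fast muscle of the calf, from male mice of the B6CASTF1/J strain, a first-generation cross, at 25 days of age. Total RNA, 300 ng for each library, was sequenced from 2 tissue samples, called animal 1 and animal 2 below. The labels give these samples different male numbers and the same donor entry, so whether they are separate mice rests on the numbering. All belong to 1 group, no treatment or genotype was compared, and every comparison below is either between genes or between these libraries. A whole muscle holds fibres of several types together with vessels, nerve and connective tissue.

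In the sarcomere, myosin-binding protein C sits in regular stripes along the thick filament, on each side of its centre. There it touches myosin heads and actin and slows or tunes the cross-bridges. Its paralogs are named for the muscle in which they were found: Mybpc1 encodes the slow skeletal form, Mybpc2 the fast skeletal form and Mybpc3 the cardiac form, whose human counterpart is a major gene of inherited hypertrophic cardiomyopathy. Mybph encodes the shorter myosin-binding protein H of skeletal muscle, and Mybphl its relative known from the atria of the heart. The myomesins cross-link neighbouring thick filaments at their centre, in the M-band: Myom1 is found in all striated muscle, Myom2 (M-protein) in fast fibres and heart, and Myom3 in slow and intermediate fibres.

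Among the detected members, Mybpc1 and Myom1 were split between long coding transcripts that differ at a few exons, and these exons are shown because the transcript shares given below turn on them. Sequences are from the GENCODE M21 transcripts and coordinates from its annotation on mm10, all within coding sequence, read 5′ to 3′ along the RNA. Capitals mark the exon that differs and lower case the neighbouring bases of the spliced transcript.
Mybpc1-202 exon 3 of 29 (chr10:88582007-88582048, minus strand): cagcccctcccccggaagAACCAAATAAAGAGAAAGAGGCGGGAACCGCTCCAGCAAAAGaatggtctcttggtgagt
Mybpc1-201 exon 27 of 29 (chr10:88521277-88521335, minus strand): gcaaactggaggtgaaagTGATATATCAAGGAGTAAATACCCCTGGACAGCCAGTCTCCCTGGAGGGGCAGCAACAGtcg
Myom1-202 exon 18 of 38 (chr17:71082203-71082496, plus strand): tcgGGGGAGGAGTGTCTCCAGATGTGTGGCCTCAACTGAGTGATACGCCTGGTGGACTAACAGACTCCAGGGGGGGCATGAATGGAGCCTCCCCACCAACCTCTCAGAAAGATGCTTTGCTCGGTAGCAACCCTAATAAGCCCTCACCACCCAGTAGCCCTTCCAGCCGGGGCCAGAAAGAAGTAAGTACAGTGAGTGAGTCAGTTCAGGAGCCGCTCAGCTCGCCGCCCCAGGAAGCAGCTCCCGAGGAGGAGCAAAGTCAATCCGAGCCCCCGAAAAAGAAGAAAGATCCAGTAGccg
Myom1-203 exon 35 of 37 (chr17:71121126-71121148, plus strand): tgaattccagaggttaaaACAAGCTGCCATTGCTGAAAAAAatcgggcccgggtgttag
Myom1-201 exon 35 of 37 (chr17:71120794-71120816, plus strand): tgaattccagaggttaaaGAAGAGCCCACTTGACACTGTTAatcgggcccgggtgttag

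The Mybpc1-202 exon has 42 bases and adds 14 residues after residue 21, near the amino end of slow myosin-binding protein C. The Mybpc1-201 exon has 59 bases, a length that is not a multiple of 3, and the coding sequence stops 3 bases after it. As a result Mybpc1-201 ends in 20 residues of its own, and Mybpc1-202, which skips the exon, ends in 3 of its own. The predicted proteins had 1127 and 1124 residues. The Myom1-202 exon has 294 bases and inserts 98 residues in the middle of myomesin 1, at the place of the EH segment, an elastic stretch known from the embryonic heart form of the protein. The 23-base exons of Myom1-203 and Myom1-201 replace each other near the carboxyl end and change 7 residues, with 1569 residues in both proteins.

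Among the myosin-binding proteins the fast form led. Mybpc2 (ENSMUSG00000038670.11, chromosome 7, 44501699 to 44524656) stood at 1753 TPM in animal 1 and 1738 TPM in animal 2, a mean of 1746 ± 10.3 TPM (SD, n = 2). TPM scales a library's transcripts to a fixed total with a correction for their length, so levels of different genes can be compared on it. The same values ranked Mybpc2 21st among the 9937 detected nuclear protein-coding genes, whose median was 6.82 TPM. The reads behind it were 177585 and 186531 expected counts, fractional assignments of reads to genes, of library totals of 35098487 and 37428588.

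Mybpc1 (ENSMUSG00000020061.17, chromosome 10, 88518279 to 88605152), the slow form, was the second member. It stood at 553 TPM in animal 1 and 545 TPM in animal 2 (549 ± 6.05, SD, n = 2), and ranked 60th. The animals' ranges did not overlap those of Mybpc2, which was 3.18 times higher. Of the summed TPM of the 3 Mybpc genes, Mybpc2 took 76.1% ± 0.0929 and Mybpc1 23.9% ± 0.0929 (SD, n = 2), so the split was nearly the same in both animals.

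No read was assigned to Mybpc3 (ENSMUSG00000002100.15, chromosome 2, 91118144 to 91136516), the cardiac form, in either animal or either quantification. A count of 0 allows up to 3 counts, which is 0.0855 and 0.0802 CPM (counts scaled by the library total) in animals 1 and 2, for counting error only. The authors' interval bounds lie around another estimate, the posterior mean TPM (0.03 and 0.02 here), and not around the TPM used above. Their upper bounds for Mybpc3 were 0.0536 and 0.0508. Mybphl (ENSMUSG00000068745.6, chromosome 3, 108364911 to 108380057) was likewise at 0 counts throughout, with upper bounds of 0.0860 and 0.0809 TPM. Expression of these genes was therefore not detectable at this depth. Other markers of heart muscle were low as well: 2 of 9 reached 1 TPM in both animals, and Nppa, Nppb, Myl7, Nkx2-5 and Gata4 had 0 counts in both. The 9 markers summed to 61 TPM in animal 1 and 80.8 TPM in animal 2, of which Myh6, a myosin heavy chain of heart that muscle spindle fibres also express, made up 58.5 and 78.2 TPM.

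Mybph (ENSMUSG00000042451.12, chromosome 1, 134193448 to 134201232) stood at 271 TPM in animal 1 and 191 TPM in animal 2 (231 ± 56.6, SD, n = 2), ranking 172nd. It had the largest spread between animals, in TPM, of the 6 detected members. For every 100 TPM of Mybpc2 there were 15.4 TPM of Mybph in animal 1 and 11.0 in animal 2.

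The myomesins were led by a nearly equal pair. Myom1 (ENSMUSG00000024049.15, chromosome 17, 71002633 to 71126856) stood at 462 and 482 TPM in animals 1 and 2 (472 ± 14.5, SD, n = 2), ranking 73rd. Myom2 (ENSMUSG00000031461.4, chromosome 8, 15057653 to 15133541) stood at 436 and 446 TPM (441 ± 6.79, SD, n = 2), ranking 84th. The animals' ranges did not overlap and Myom1 was 1.07 times higher, but this order depended on how short transcripts were treated. In the second deposited quantification Myom1 stood at 524 and 538 TPM and Myom2 at 575 and 595, so that Myom2 was the higher gene in both animals. With only the protein-coding transcripts of the first quantification, an alternative chosen after seeing the data, Myom1 stood at 327 and 343 TPM and Myom2 at 421 and 431. No order between these genes can therefore be given from these data.

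Myom3 (ENSMUSG00000037139.15, chromosome 4, 135759715 to 135815564), the myomesin of slow and intermediate fibres, was the lowest detected member. It stood at 18.8 TPM in animal 1 and 22.7 TPM in animal 2 (20.8 ± 2.76, SD, n = 2) and ranked 2028th. Of the summed TPM of the 3 myomesins, Myom1 took 50.6% ± 0.249, Myom2 47.2% ± 0.487 and Myom3 2.22% ± 0.238 (SD, n = 2). The second quantification gave 46.5%, 51.3% and 2.23%.

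**Figure D1:**
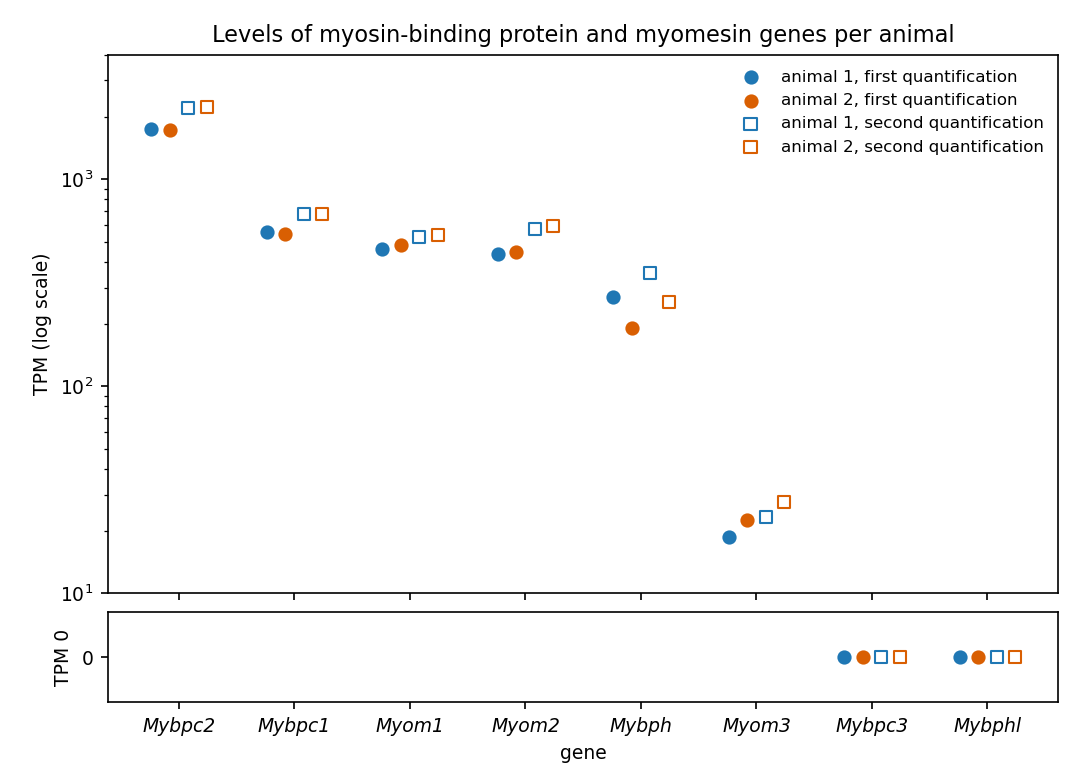
Level of each of the 8 genes in TPM (log scale, with 0 in a strip of its own), for each animal (colour) in the first (filled circles) and second (open squares) deposited quantification. Mybpc2 lies highest at 1753 and 1738 TPM in the first quantification, Myom1 and Myom2 change order between quantifications, and Mybpc3 and Mybphl lie at 0 throughout.

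With 6 of 8 members at 1 TPM or more in both animals, the genes were detected more often than annotated genes as a whole (10792 of 55536, or 19.4%) or nuclear protein-coding genes (9937 of 22015, or 45.1%), a description that carries no test. Apart from the pair of myomesins, the descending order of levels was Mybpc2, Mybpc1, the pair, Mybph and Myom3 in both animals and both quantifications, and no neighbours in it overlapped between animals. Mybpc1 was 1.16 times higher than Myom1 in the first quantification and 1.28 times higher in the second, and Myom2 was 1.91 and 1.93 times higher than Mybph.

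The partners of these proteins gave the scale. For every 100 TPM of the 4 adult sarcomeric myosin heavy chains Myh1, Myh2, Myh4 and Myh7, the summed Mybpc genes stood at 18.1 TPM in animal 1 and 19.0 in animal 2. The summed myomesins stood at 7.19 and 7.93 TPM on the same scale, and Mybph at 2.12 and 1.59. For every 100 TPM of Ttn, which encodes titin, the giant spring that carries both protein families along the thick filament, the myomesins stood at 37.0 and 34.7 TPM. These are ratios of RNA and give no ratio of proteins.

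All 18 genes listed as A-band and M-band partners were detected. Muscle creatine kinase Ckm, which binds the M-band, led them at 16973 ± 586 TPM, followed by Ttn at 2609 ± 183 TPM. Also among them was Fhl1 (a LIM protein reported to bind myosin-binding protein C) at 534 ± 52.4 TPM (SD, n = 2 for each). All 8 genes listed as kinases of myosin-binding protein C, whichever form they act on, were detected too, with Camk2a highest at 139 ± 7.50 TPM. Prkaca, the catalytic subunit of protein kinase A, followed at 65.4 ± 5.11 TPM, then Camk2g at 56.8 ± 2.12 and Camk2b at 46.8 ± 0.757 TPM (SD, n = 2 for each).

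Counts were next compared between the libraries, to ask which members differed by more than counting error. Each gene's rounded counts were scaled by TMM and entered a two-sided exact binomial test, with p-values adjusted by Benjamini-Hochberg over 14754 genes. Such a test compares 2 libraries and not conditions, and over 2 animals no exact test can go below p = 0.5. With both an adjusted p below 0.05 and more than a 2-fold ratio required, 0 of the 6 members with counts were called, against 1.8% of all genes tested. All 6 members had an unadjusted p under 0.05, as did 24.6% of all genes. By adjusted p alone, 5 members were lower in animal 2, against 7.74% of all genes, and 1 was higher, against 6.63%. Abundant genes pass this test at small ratios: of the 438 nuclear protein-coding genes that reached a mean of 100 TPM, 30.6% were lower and 20.8% higher in animal 2. The members' median log2 ratio was -0.11, beside a median near 0 (-0.0023) over all genes tested, and their median absolute log2 ratio was 0.15, beside 0.14 over all genes tested and 0.071 over the 438 abundant genes.

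Mybph differed most between the animals. It stood at 387 CPM in animal 1 and 271 in animal 2, values scaled by library totals. With TMM scaling its log2 ratio (animal 2 over animal 1) was -0.63, with a 95% counting interval of -0.66 to -0.59. Its adjusted p by the exact binomial test was 4.1e-240. Of the 438 abundant genes, Mybph included, 2.74% had an absolute log2 ratio as large, and 5 had a ratio at or below it. The second quantification gave -0.62. At a 1.5-fold threshold Mybph was the 1 member called, against 3.71% of all genes, but with library totals its log2 ratio of -0.52 fell short of that threshold. Mybph was thus the member whose animals lay farthest apart on every scale used.

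Myom3 was the 1 member higher in animal 2. It stood at 72.5 CPM in animal 1 and 89.7 in animal 2, a log2 ratio of 0.31 with library totals. With TMM scaling its log2 ratio was 0.20 (0.12 to 0.27), with an adjusted p of 3.7e-06 by the same exact test. Mybpc1 had a log2 ratio of -0.18 (-0.19 to -0.16), Mybpc2 of -0.13 (-0.14 to -0.12), Myom2 of -0.09 (-0.10 to -0.07) and Myom1 of -0.06 (-0.08 to -0.04). The ratios of Myom1 and Myom2 were small enough to change sign with the scaling: scaled by library totals they were 0.052 and 0.025. Both lay below the median over all genes tested, which was -0.0023 with TMM and 0.11 with library totals. Library totals shift every log2 ratio, and so this median, by the same 0.11, so that position cannot change between the scalings. With library totals 3 members were higher and 3 lower in animal 2 by adjusted p, against 19.9% and 4.1% of all genes under the same scaling.

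Fibre-type genes differed between the same libraries. All 10 slow fibre genes were higher in animal 2 by adjusted p, with a median log2 ratio of 0.73 and summed levels of 1501 TPM in animal 1 and 2650 TPM in animal 2. Scaled by library totals, all 10 were again higher. Of all genes tested, 6.63% were higher and 7.74% lower with TMM, and 19.9% and 4.1% with library totals. Of the 438 abundant genes, 20.8% were higher and 30.6% lower with TMM. Of 11 fast fibre genes, 10 were lower and 0 higher by adjusted p, with a median log2 ratio of -0.14, but this split depended on the scaling. With library totals 6 were lower and 3 higher, with a median of -0.03. The median over all genes tested was -0.0023 with TMM and 0.11 with library totals. In TPM 5 of the 11 stood higher in animal 2. The median log2 ratio of TPM over detected nuclear protein-coding genes was 0.12. Myh7, the slow myosin heavy chain, made up 1.80 of every 100 TPM of the 4 adult heavy chains in animal 1 and 3.29 in animal 2. Myom3 had the sign of the slow genes, but its ratio of 0.20 was below those of 9 of the 10. Mybpc1, although named for slow fibres, had a negative log2 ratio under both scalings (-0.18 and -0.066), and its level for every 100 TPM of Mybpc2 was 31.6 in animal 1 and 31.3 in animal 2. In whole muscle, fewer cells of a type and less RNA per cell cannot be told apart.

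Of 7 tested genes of immature fibres, 3 were lower in animal 2 by adjusted p and 0 higher, against 7.74% and 6.63% of all genes. With library totals 3 were lower and 1 higher, against 4.1% and 19.9%. The embryonic myosin heavy chain Myh3 stood at 8.32 and 4.66 TPM, the perinatal chain Myh8 at 132 and 98.8 TPM, and cardiac actin Actc1, which immature fibres also express, at 891 and 863 TPM in animals 1 and 2. These were the 3 genes lower by adjusted p with TMM. In TPM, 2 of the 7 tested genes stood higher in animal 2, Ncam1 and Chrna1. Their log2 ratios with TMM were 0.107 and 0.192, and neither passed adjusted p. The 8 genes of this list summed to 1056 TPM in animal 1 and 995 TPM in animal 2, most of it Actc1. Markers of muscle spindle fibres summed to 61.8 and 82.6 TPM, nearly all of it the Myh6 already counted above with the heart markers, whose mean was 68.3 TPM in the first quantification and 30.4 TPM in the second. Markers of smooth muscle summed to 57.9 and 72.1 TPM, while skeletal muscle markers summed to 98933 and 98689 TPM. The part of fibre make-up and of these other cells in the ratios of Mybph and Myom3 was not tested.

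Among the functional partners, the split between directions depended on the scaling. With TMM, 6.63% of all genes tested were higher and 7.74% lower in animal 2 by adjusted p, and 20.8% and 30.6% of the 438 abundant genes. Of 18 A-band and M-band partners, 5 were higher and 4 lower in animal 2 by adjusted p, with a median log2 ratio of 0.015. Of the 8 kinases, 0 were higher and 2 lower (median -0.06), and of the 8 thick filament myosins 3 were higher and 4 lower (median -0.03). With library totals these counts were 13 higher and 2 lower for the partners, 3 and 1 for the kinases, and 5 and 2 for the myosins. Of all genes tested, 19.9% were higher and 4.1% lower under that scaling. The medians of partners, kinases and myosins were then 0.13, 0.046 and 0.078, beside 0.11 over all genes tested.

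**Figure D2:**
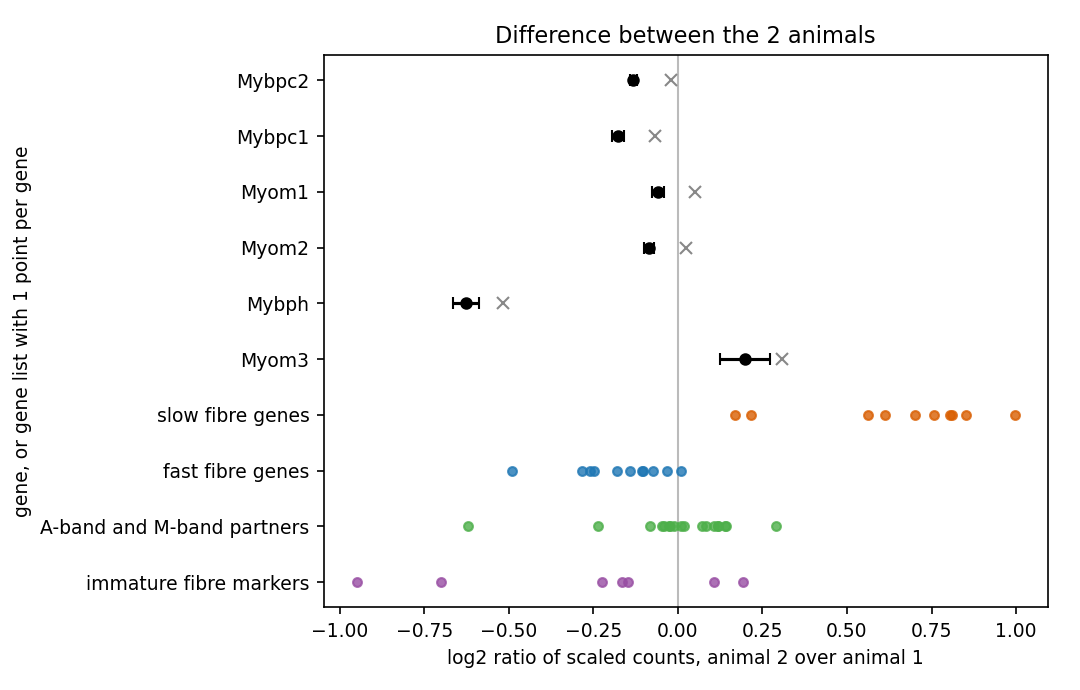
Log2 ratio of scaled counts, animal 2 over animal 1, for the 6 members with counts (black points with 95% counting intervals; grey crosses are the ratios with library totals) and for the genes of 4 lists (1 coloured point per gene). Mybph lies at -0.63 and Myom3 at 0.20, the crosses of Myom1 and Myom2 lie on the other side of 0 from their points, and all 10 slow fibre genes lie above 0.

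Each detected member had the same leading transcript in both animals and both quantifications (6 of 6), but the share outside the leading transcript differed widely between genes. Mybpc2-201 took 100% of Mybpc2 in every case. Mybph-201 took 97.9% and 98.3% of Mybph in the first quantification and 95.2% and 96.1% in the second, and the rest was a transcript that keeps an intron and has a coding sequence of the same length. Myom2-201 took 96.4% and 96.8% of Myom2 in the first and 93.2% and 94.0% in the second, where the intron-retaining Myom2-202 took 5.89% and 5.95%. These 3 genes were thus nearly single-transcript genes in this muscle.

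Mybpc1 was split between its coding transcripts shown above. Mybpc1-202, with the 42-base exon near the amino end, took 48.5% (animal 1) and 52.0% (animal 2) by the first quantification, and 61.8% and 62.5% by the second. Mybpc1-201, with the 59-base exon that changes the carboxyl end, took 37.0% and 30.6% in the first and 32.0% and 29.3% in the second. Taking these transcripts alone, Mybpc1-202 took 59.9% ± 4.40 of their TPM by the first and 67.0% ± 1.54 by the second quantification (SD, n = 2). They differ at both exons and at their ends, so this share does not measure use of the 42-base exon alone. Mybpc1-203, a short transcript annotated with a retained intron near the 3′ end, took 10.5% and 9.48% in the first quantification but 1.03% and 1.70% in the second.

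For Myom1 the quantifications gave nearly the same share to the leading transcript and different shares to the others. Myom1-203 led at 63.6% and 64.2% in the first and 64.3% and 63.1% in the second. Myom1-208, a non-coding entry of 941 bases that shares 91.4% of its bases with the 3′ end of Myom1-203, took 27.2% and 27.7% in the first quantification but 3.47% and 1.29% in the second. The cause of this difference between the quantifications was not tested.

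The form with the EH exon, Myom1-202, took 6.27% and 5.79% of Myom1 in the first quantification and 9.62% and 9.33% in the second. As a share of the 3 long coding transcripts, the EH exon was in 8.51% ± 0.509 and 10.9% ± 0.658 (SD, n = 2) of their TPM by the first and second quantification. In both quantifications animal 2 had the lower share, by less than 1 percentage point. The alternative 23-base exon of Myom1-201 was in 1.30% ± 0.243 by the first but 16.2% ± 4.49 by the second, so its use cannot be given from these tables. Myom1-209, which starts 5′ of the other Myom1 transcripts and whose first exon overlaps Myl12a on the opposite strand by 207 bases, took 0.07% in both animals by the first and 8.78% and 7.44% by the second. Myl12a, a non-muscle regulatory light chain, stood at 146 and 158 TPM. The part of reads from Myl12a in these shares was not tested.

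Myom3-201 took 75.1% and 79.4% of Myom3 in the first and 85.5% and 95.6% in the second quantification. The rest was mostly Myom3-203, an intron-retaining transcript sharing 95.9% of its bases with Myom3-201, at 23.0% and 19.9% in the first and 11.6% and 3.21% in the second. The share of Myom3-203 was lower in animal 2 in both quantifications. Its level was 4.32 TPM in animal 1 and 4.52 TPM in animal 2 by the first, but 2.70 and 0.882 TPM by the second. These shares rest on 2545 and 3359 counts for the whole gene.

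**Figure D3:**
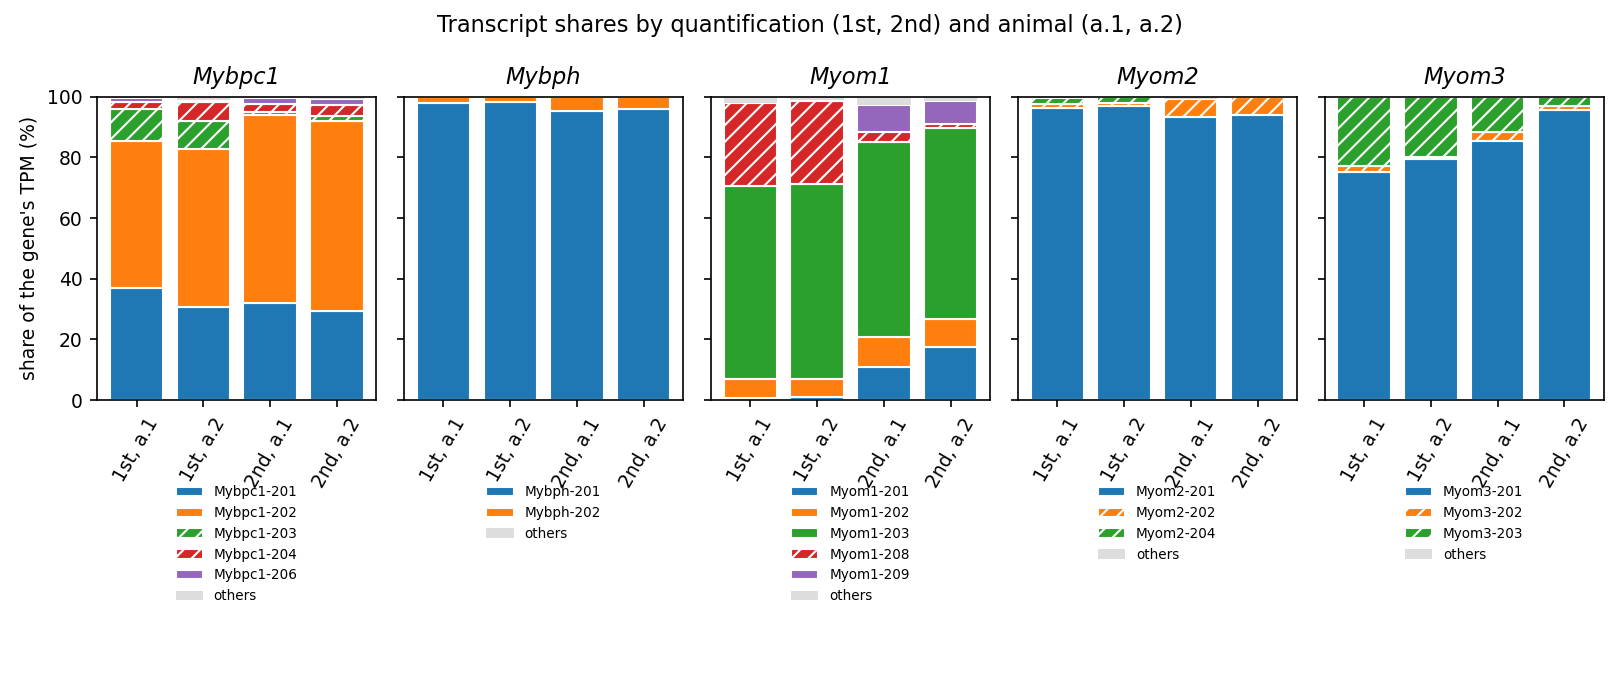
Share of each gene's TPM taken by its transcripts, in percent, for 5 detected members (Mybpc2 had 1 transcript at 100% and is left out), by quantification and animal; hatched bars are transcripts not annotated as protein-coding. The leading transcript of each gene is the same in all 4 bars, while Myom1-208 takes 27.2% and 27.7% in the first quantification and 3.47% and 1.29% in the second.

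**Figure D4:**
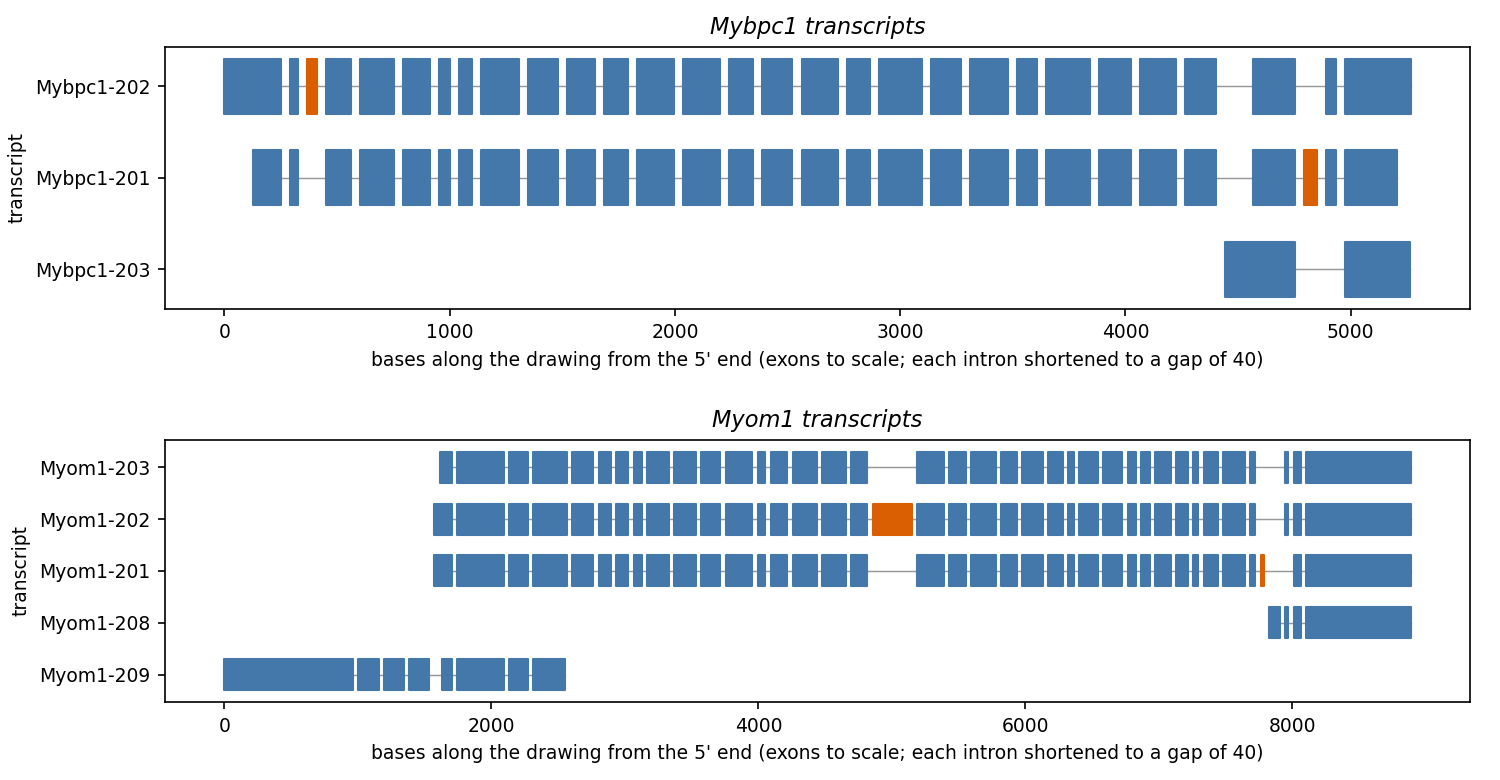
Exons of the main Mybpc1 and Myom1 transcripts drawn to scale, with each intron shortened to a fixed gap; orange exons occur in only 1 of the long coding transcripts drawn (Mybpc1-201 and Mybpc1-202; Myom1-201, Myom1-202 and Myom1-203). Mybpc1-203 and Myom1-208 lie over the 3′ end of their genes, and Myom1-209 starts before the other Myom1 transcripts.

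Entries annotated as non-coding (retained introns and processed transcripts) took 14.2% of Mybpc1, 29.1% of Myom1, 3.44% of Myom2 and 22.7% of Myom3 as means of the first quantification, and 0% of Mybpc2 and Mybph. The second gave 4.63%, 4.50%, 6.38% and 9.45% for the same 4 genes. By the first quantification the median over the 6 members was 8.23% for animal 1 and 9.39% for animal 2, beside 7.43% and 6.88% over the 9937 detected protein-coding genes. In the second it was 5.04% and 3.57%, beside 9.02% and 8.52%. The members' median was thus above that of all genes by one quantification and below it by the other, with the single members spread widely around it.

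The members share a build of repeated immunoglobulin and fibronectin domains, but their sequences are far enough apart for reads to be told from each other. Translated and aligned, Mybpc1 and Mybpc2 had 51.3% identical residues, Mybpc2 and Mybpc3 55.9%, and Mybph and Mybphl 66.8%, the closest pair. Myom1 and Myom2 had 49.9%, and Myom3 had 41.1% with Myom1 and 41.7% with Myom2. Between the families, identity ranged from 23.3% (Mybpc3 with Myom3) to 30.0% (Mybph with Myom3). The lengths set the families apart as well: 1124, 1136 and 1278 residues in Mybpc1, Mybpc2 and Mybpc3, 483 and 355 in Mybph and Mybphl, and 1569, 1463 and 1439 in Myom1, Myom2 and Myom3.

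No stretch of 31 bases of the main transcript of any member occurred on the same strand in a transcript of another gene. On the opposite strand, 30.6% of the stretches of Mybph-201 lay in transcripts of Adora1, an adenosine receptor gene listed at 0.11 and 0.19 TPM. For Mybpc1-202 the share was 5.70% (Gm48752, at 0 TPM) and for Mybpc2-201 3.77% (Gm44646, at 0.08 and 0.10 TPM). Whether strand was used in counting is not given in the sources used here, and without strand the reads of Mybph and Adora1 cannot be told apart over that stretch.

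The 250 bases before the start site, from RefSeq on GRCm38.p6, were matched for 7 of the 8 genes. Those of Mybpc2, the most abundant member, and of Mybpc3, at 0 counts, are shown as the extremes of the levels above. Capitals mark E-boxes (CANNTG on either strand, the motif bound by MyoD-family factors).
Mybpc2 (chr7:44524670-44524919, minus strand): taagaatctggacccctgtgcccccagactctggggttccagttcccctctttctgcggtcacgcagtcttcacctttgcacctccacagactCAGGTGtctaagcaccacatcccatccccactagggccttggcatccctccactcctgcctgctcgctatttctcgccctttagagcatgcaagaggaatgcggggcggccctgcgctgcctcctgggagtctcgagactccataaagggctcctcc
Mybpc3 (chr2:91117894-91118143, plus strand): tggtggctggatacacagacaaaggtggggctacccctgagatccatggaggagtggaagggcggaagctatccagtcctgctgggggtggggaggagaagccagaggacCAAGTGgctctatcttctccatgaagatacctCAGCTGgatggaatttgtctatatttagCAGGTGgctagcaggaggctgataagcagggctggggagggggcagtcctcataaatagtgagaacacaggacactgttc

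An E-box was present in 66.2% of all 32851 promoters of that length, in 1 place in Mybpc2 and in 3 places in Mybpc3. Of the other matched members, Myom1 had 3, Mybpc1 had 2, Mybph and Myom3 had 1 each, and Mybphl had 0. The MEF2 motif, present in 2.92% of all promoters on either strand, was found in Mybpc3 and Myom3. The CArG motif of serum response factor, present in 1.47%, was found in Myom1, and TATAAA, present in 12.4%, in Mybph, where it lay 39 bases before the start. The detected and undetected genes thus were not separated by E-box letters in this window, which says nothing about the binding of any factor.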

How the data were processed

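Total RNA-seq libraries of gastrocnemius from 2 male samples were analysed, treated as separate animals by their numbering. The authors' first tables hold expected counts, TPM, interval bounds of TPM (a signal, level not stated) and the percent of a gene taken by each transcript, in columns that RSEM writes, per the file headers. Estimated counts and TPM come also from a deposited second transcript table, in columns that kallisto writes, per the file headers. The build mm10 and GENCODE M21 are named in the deposited descriptions. The aligner, its version and any use of strand were not given in the sources used here. Reads from both parental strains were quantified on 1 reference, and the effect of that was not tested.

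Expected counts were rounded. Library totals were 35098487 and 37428588, with a floor of 3 counts, and intervals cover counting error only. Levels are deposited TPM, and detection means 1 TPM or more in both animals. Second-table transcripts were summed to genes. Counts were scaled by TMM (edgeR 4.0.16, R 4.3.3), and genes whose counts summed to at least 20 entered the exact binomial test with Benjamini-Hochberg adjustment (scipy 1.17.1), with a prior count of 0.5 for ratios. The script was tested on simulated data. Replicates were compared only as libraries, so p-values measure the spread of counting alone. Alternatives were DESeq2 1.42.0 size factors, library totals, no count filter, other thresholds, the second table, posterior mean TPM, TPM over nuclear protein-coding genes, each animal left out, and coding transcripts only. Proteins were translated from GENCODE coding sequences and aligned with Biopython 1.88. Named genes are all 8 members, at most 4 highest genes of each of 10 lists, and transcripts with a mean of 5% or more of their gene in either quantification. Other genes behind a small count, or overlapping a member, were named after their values were seen. The members and lists were chosen with earlier results of these data known.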

Additional observations from a re-analysis of the deposited data

How the results depend on the processing

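The summed level of the 8 genes was 3460 TPM as reported. It was 4342 TPM in the second transcript table, 3388 with posterior means, 8715 over nuclear protein-coding genes only and 3225 with coding transcripts only, the last chosen after seeing the data. With 1 animal left out it ranged from 3425 to 3494 TPM. The share of Mybpc2 among Mybpc genes, 76.1%, was 76.6% in the second table and 78.7% with coding transcripts only (76.0% to 76.1% with 1 animal left out). The share of Myom1 among myomesins, 50.6%, was 46.5% and 43.1% under the same alternatives (50.4% to 50.7%). The log2 ratio of Myom1 over Myom2, 0.10, became -0.14 and -0.35. The median non-coding share, 8.81%, was 4.30% in the second table (8.23% to 9.39% with 1 animal left out). At a 1.5-fold threshold 1 member (Mybph) was called between animals, against 0, beside 3.71% of all genes. Its log2 ratio with library totals, -0.52, is short of that threshold. With library totals, 3 members were lower and 3 higher in animal 2, against 5 and 1, and the log2 ratios of Myom1 and Myom2 became 0.052 and 0.025. DESeq2 size factors, no count filter and the second table left these counts at 5 and 1. The 6 detected members and their leading transcripts were the same in number under every alternative run for them. With 2 libraries of 1 group, the spread between animals is known poorly, and depth limits mainly Mybpc3 and Mybphl, where up to 3 counts could be missed. The cause of these shifts was not tested, except that leaving out non-coding transcripts lowers the genes that have them.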
